A study of Homo sapiens with 8 samples.

Results

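Nucleotide excision repair was followed through 10 core genes, XPC, DDB1, DDB2, XPA, ERCC1, ERCC2, ERCC3, ERCC4, ERCC5 and ERCC8, which were the rows of the count table whose gene identifiers carry these symbols, 10 of 58233 rows. The table comes from RNA-seq of MCF10A-Hras cells, a non-tumorigenic human breast epithelial line transformed with the H-Ras oncogene, so that every group carried H-Ras. The 4 groups, with 2 biological replicates each (A and B), were untreated control cells of WT genotype, control cells 12 h after 5 Gy of X-ray ionizing radiation (IR), untreated RBM6 KO cells and RBM6 KO cells 12 h after the same dose. The RBM6 KO cells sequenced were 1 clone, KO1, made with a Cas9 nickase and a pair of guides to RBM6 exon 3, and differences between this clone and the control cannot be told apart from differences between clones. The libraries held 15355281 to 29832009 counts on genes, and all 10 genes passed the filter on low counts in each comparison.

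Nucleotide excision repair removes bulky, helix-distorting lesions such as ultraviolet photoproducts and chemical adducts. Lesions anywhere in the genome are found by XPC, helped by the DDB1-DDB2 complex, while a lesion that stalls RNA polymerase II on a transcribed strand is handled by the transcription-coupled branch, to which ERCC8 belongs. Both branches then bring in TFIIH, whose helicase and translocase subunits ERCC2 (XPD) and ERCC3 (XPB) open the DNA, XPA, which checks the lesion, and the nucleases ERCC1-ERCC4 (XPF) and ERCC5 (XPG), which cut on either side of it. The gap is filled by replicative polymerases with PCNA and sealed by a ligase. XPC and DDB2 are known transcriptional targets of p53, the transcription factor that IR activates, and IR itself mainly makes strand breaks and oxidised bases, lesions handled largely by other pathways.

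XPC and DDB2 were the members that changed with IR, and the sequences around their transcription starts are shown because both are described as p53 targets. The windows are those of RefSeq on GRCh38.p14, each 300 bases long and running 50 bases past the start, and all 10 genes had at least 1 window (13 windows in all). Capitals mark matches to the p53 half-site, the decamer of which a p53 response element holds a pair, searched on both strands. The windows lie at chr11:47214724-47215023 on the plus strand for DDB2 and at chr3:14178552-14178851 on the minus strand for XPC.
DDB2: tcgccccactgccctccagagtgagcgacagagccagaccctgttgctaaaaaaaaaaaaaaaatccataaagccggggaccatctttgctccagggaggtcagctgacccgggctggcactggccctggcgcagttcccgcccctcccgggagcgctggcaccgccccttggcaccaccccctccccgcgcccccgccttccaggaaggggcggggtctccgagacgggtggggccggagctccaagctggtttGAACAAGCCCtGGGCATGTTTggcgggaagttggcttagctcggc
XPC: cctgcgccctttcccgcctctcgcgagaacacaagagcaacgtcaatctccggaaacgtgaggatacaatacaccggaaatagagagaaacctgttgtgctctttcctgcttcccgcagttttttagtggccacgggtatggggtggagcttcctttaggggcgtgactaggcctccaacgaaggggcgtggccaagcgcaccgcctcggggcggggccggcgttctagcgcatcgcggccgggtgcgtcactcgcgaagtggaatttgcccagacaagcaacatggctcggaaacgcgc
The DDB2 window shown held 2 matches, at positions +6 to +15 and +17 to +26 from the start, that is, 1 base apart. No other member window held a match, nor did the other DDB2 window, at chr11:47214204-47214503. Over all 35116 windows 6.63% held at least 1 match, and 10 windows (0.0285%) held a pair with at most 13 bases between the matches, a search that was added after the matches in DDB2 had been seen. A p53 target list had 35 windows in 23 genes, and 6 of the 35 windows, each in a different gene, held a match. Of these 23 genes, DDB2 was the only one with such a pair in a window. Genes of the list without a window, and sequence outside the windows, were not searched. The XPC window held no match, which says only that these letters are not in this window, and it held 1 GGGCGG box at -41 to -36. That box, searched on both strands, was in 8 of the 13 member windows and in 44.9% of all windows, and CCAAT was in 4 of the 13 and in 34.6%.

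The label of the cells was checked against marker genes. All 10 listed basal breast epithelial markers were detected in every library, with a summed level of 9185 to 12109 normalised CPM (read counts scaled to library size), and KRT5 stood at 1057 to 1623 CPM. CD3E had 0 counts and the other immune markers at most 3. Fibroblast markers were present: DCN stood at 66.6 to 204 CPM, COL1A1 had 93 to 375 counts, COL3A1 had at most 1 and PDGFRA at most 9. Their summed level was 81.1 to 108 CPM in the control libraries and 119 to 211 CPM in the RBM6 KO libraries. The summed level of 3 endothelial markers was 1.26 to 2.47 CPM in the control and 3.38 to 6.33 CPM in the RBM6 KO libraries, mostly from PECAM1 (25 to 93 counts), while CDH5 and VWF had at most 4 counts. Both sums moved with the genotype, and their part in the genotype differences given here was not tested. RBM6 itself, the targeted gene, was at 66.9 and 68.8 CPM in untreated control, 54.5 and 48.9 in control after IR, 61.5 and 63.2 in untreated RBM6 KO and 44.01 and 33.9 in RBM6 KO after IR. Its log2 fold change in RBM6 KO against control was -0.14 untreated and -0.40 after IR (Benjamini-Hochberg adjusted p = 0.712 and 0.535 in the quasi-likelihood test of edgeR), so that the mRNA level did not mark the knockout, and counts per gene do not show the deletion. After IR the log2 fold change of RBM6 was -0.40 in control cells (adjusted p = 0.167) and -0.69 in RBM6 KO cells (adjusted p = 0.0498, edgeR).

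Before IR the recognition and incision genes differed widely in level. Different genes were compared per kilobase of exon, with the union of annotated exons as the length. On this scale untreated control cells held DDB1 at 23.1 and 24.1 CPM per kb, ERCC1 at 21.0 and 21.9, and DDB2 at 13.4 and 13.9. ERCC2, ERCC3, XPA and XPC followed at 8.70 and 9.68, 5.08 and 6.42, 4.61 and 5.00, and 3.28 and 3.52 CPM per kb, and no neighbours in this order overlapped. ERCC4 (0.438 and 0.467), ERCC8 (0.357 and 0.387) and ERCC5 (0.111 and 0.151) formed the low end. With the mean transcript length in place of the exon union, XPC stood above XPA and ERCC8 above ERCC4. The distance of the low end also depends on the length: by mean transcript length ERCC8 was at 4.14 CPM per kb and XPA at 8.47 (means of untreated control). After IR the order changed at its top: in control cells DDB2, at 30.05 and 27.4 CPM per kb, reached the level of DDB1, at 29.8 and 29.7, with overlapping libraries. In RBM6 KO cells after IR, DDB2, at 15.8 and 14.7, stayed below DDB1, at 22.2 and 27.1, and overlapped ERCC1, at 15.9 and 14.1. The step of DDB2 up to DDB1 depends on the length used: per kilobase of mean transcript length the irradiated control cells held DDB1 at 177 ± 0.748 CPM per kb and DDB2 at 118 ± 7.76 (SD, n = 2).

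**Figure D1:**
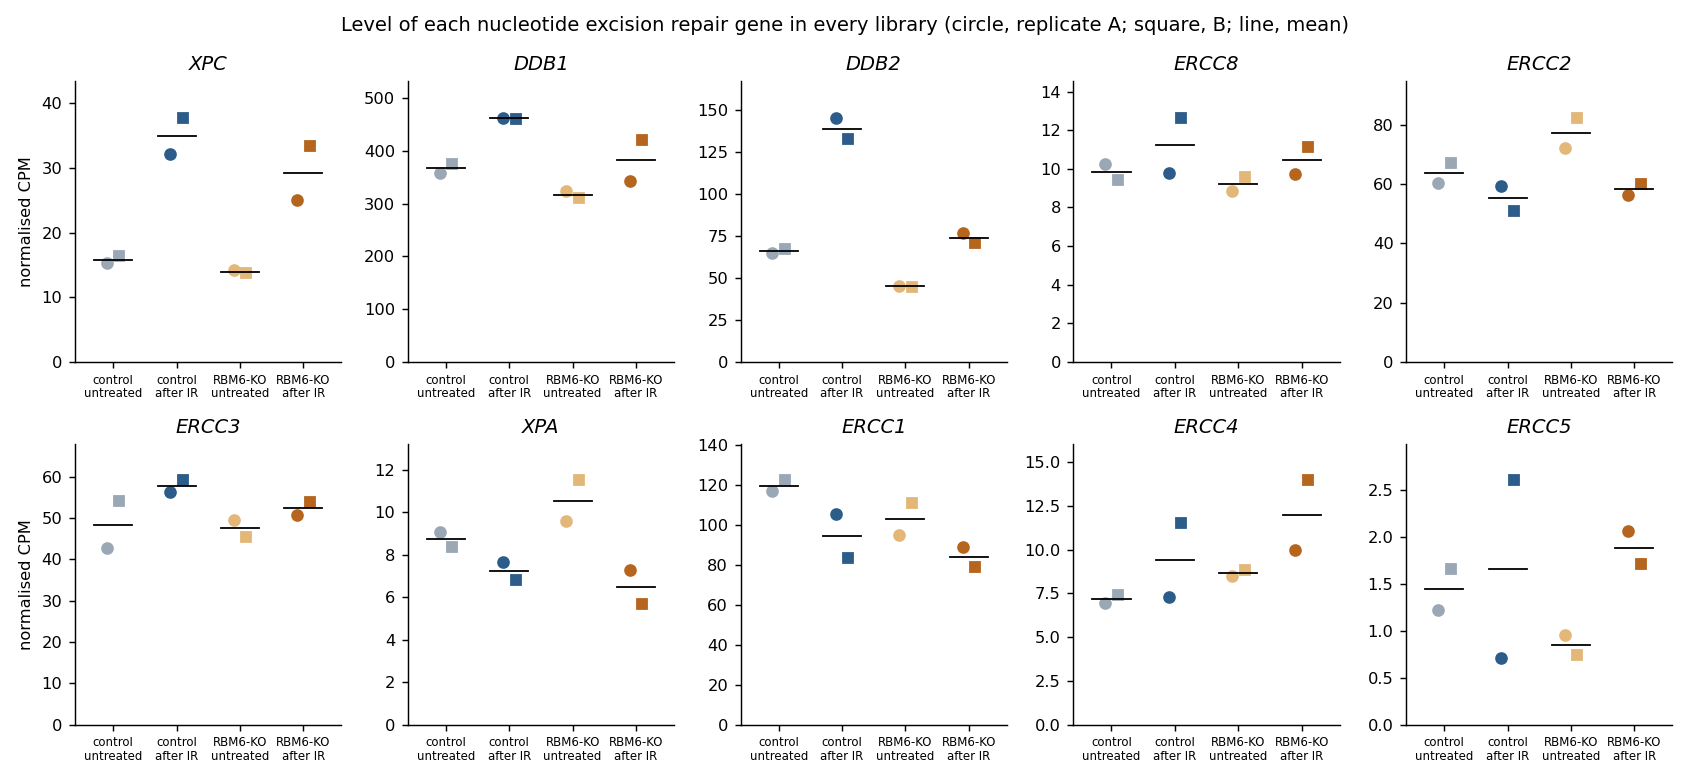
Level of each of the 10 genes in every library in normalised CPM, each panel starting at 0, with circles for replicate A, squares for replicate B and lines for group means. XPC and DDB2 stand higher after IR in both genotypes, and the DDB2 points of RBM6 KO cells lie below those of control cells under the same treatment.

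The first question is how the recognition genes responded to IR in control cells. XPC and DDB2 rose about 2-fold, and DDB1, the partner of DDB2, did not pass the test. In bulk libraries a change in the share of cells with an mRNA and a change in its amount per cell cannot be told apart. XPC (ENSG00000154767, chromosome 3, 14145147 to 14178621, minus strand, GENCODE v44) was at 15.2 and 16.3 CPM in untreated control cells and at 32.1 and 37.8 CPM after IR. The irradiated libraries lay well above the untreated ones, with a log2 fold change of 1.14 ± 0.21 (SE; 2.20-fold, adjusted p = 0.0132, edgeR). DDB2 (ENSG00000134574, chromosome 11, 47214465 to 47239217, plus strand), the subunit that binds the lesion in the DDB1-DDB2 complex, went from 64.7 and 67.2 CPM to 145 and 133 CPM. Here too the groups did not overlap, and the log2 fold change was 1.07 ± 0.16 (SE; 2.09-fold, adjusted p = 0.00548, edgeR). DDB1 (ENSG00000167986, chromosome 11, 61299451 to 61342596, minus strand), which is also the adaptor of the CUL4 ubiquitin ligases, had 359 and 375 CPM before and 463 and 460 CPM after IR. Its libraries did not overlap either, but the log2 fold change of 0.32 ± 0.15 (SE) did not pass (adjusted p = 0.215, edgeR). Over all 15412 genes tested, 4537 were higher after IR without overlap and 4263 lower, so non-overlap alone was common.

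Of the 10 members, 2 rose and 0 fell in control cells after IR, beside 2.81% of the 15412 genes tested that rose and 2.91% that fell at an adjusted p under 0.05. Both members that rose also passed the 2-fold threshold, as 3.59% of all genes did in either direction. The median log2 fold change was 0.26 over the members and 0.02 over all genes tested. Leaving out 1 library left a single library in its group and changed some of these calls: without untreated replicate A the adjusted p was 0.0924 for XPC and 0.0532 for DDB2, and without untreated replicate B it was 0.0638 for XPC. Without irradiated replicate A, DDB1, ERCC1 and ERCC4 passed as well (edgeR), in the fit of this comparison with the highest number of passing genes. Over the fits that left out a library, their log2 fold changes ranged from 0.27 to 0.36, -0.51 to -0.19 and 0.016 to 0.69.

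In RBM6 KO cells IR was followed by a rise of the same 2 genes. XPC went from 14.2 and 13.7 CPM to 25.0 and 33.5 CPM, a log2 fold change of 1.05 ± 0.20 (SE; 2.07-fold, adjusted p = 0.0269, edgeR). Both irradiated libraries lay above both untreated ones, as for 5078 of the 15598 genes tested, and the irradiated pair was farther apart than the untreated pair. DDB2 went from 45.0 and 44.8 CPM to 76.5 and 71.1 CPM, a log2 fold change of 0.70 ± 0.15 (SE; 1.62-fold, adjusted p = 0.0361, edgeR). The irradiated RBM6 KO libraries thus lay only a little above the untreated control libraries, at 64.7 and 67.2 CPM. The DDB2 call was lost without untreated RBM6 KO replicate A (adjusted p = 0.0535) or B (0.168), whereas the XPC call held in each of the 4 fits that left out a library. DDB1, at 323 and 311 CPM before and 344 and 420 CPM after IR, did not pass (log2 fold change 0.25, adjusted p = 0.294, edgeR).

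Of the 10 members, 2 rose and 0 fell in RBM6 KO cells after IR, beside 2.44% of 15598 genes that rose and 3.23% that fell. XPC passed the 2-fold threshold, which 3.11% of all genes passed in either direction, and DDB2 did not reach it. The median log2 fold change was 0.21 over the members and -0.01 over all genes tested.

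The next comparison asks which members differed between the genotypes. DDB2 was lower in RBM6 KO cells, and it was the only member that passed in either treatment. In untreated cells it was at 45.0 and 44.8 CPM in RBM6 KO against 64.7 and 67.2 CPM in control, a log2 fold change of -0.57 ± 0.15 (SE; 1.48-fold lower, adjusted p = 0.0315, edgeR). After IR it was at 76.5 and 71.1 CPM in RBM6 KO against 145 and 133 CPM in control, a log2 fold change of -0.91 ± 0.15 (SE; 1.87-fold lower, adjusted p = 0.0444, edgeR). In both treatments the libraries of the genotypes did not overlap and lay close together within each genotype. Of all genes tested, 3717 of 15556 untreated and 3154 of 15587 after IR were also lower in RBM6 KO without overlap. The 2 comparisons rest on separate libraries, while each IR comparison shares its libraries with them.

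In untreated cells 0 of the 10 members rose and 1 fell, beside 2.38% of 15556 genes that rose and 3.73% that fell, and no member reached the 2-fold threshold that 3.12% of all genes passed. After IR 0 rose and 1 fell, beside 0.372% of 15587 genes that rose and 0.84% that fell, with 0 members past the 2-fold threshold that 1.17% of all genes passed. The members' median log2 fold change was -0.15 untreated and -0.14 after IR, and that of all genes tested was 0.01 and 0.02. The DDB2 call was sensitive to single libraries: untreated, it was lost without control replicate A (adjusted p = 0.108) or B (0.299) and with all 8 libraries in 1 fit (0.0523). After IR it was lost without RBM6 KO replicate A (0.104) or B (0.260) and when genes needed 10 counts in each library to be tested (0.0628, edgeR). The log2 fold change stayed between -0.60 and -0.53 untreated and between -0.98 and -0.85 after IR in the fits that left out a library.

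XPC did not pass between the genotypes. Untreated, it was at 14.2 and 13.7 CPM in RBM6 KO against 15.2 and 16.3 CPM in control, without overlap, and after IR the libraries overlapped. Its log2 fold change in RBM6 KO against control was -0.19 untreated, with a 95% interval from -0.61 to 0.23, and -0.25 after IR, with an interval from -0.76 to 0.25 (adjusted p = 0.697 and 0.793, edgeR). DDB1 had log2 fold changes of -0.22 and -0.27 (adjusted p = 0.423 and 0.653), with libraries that did not overlap in either treatment. Such separation was common, with 3717 of 15556 genes lower in RBM6 KO without overlap untreated and 3154 of 15587 after IR.

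**Figure D2:**
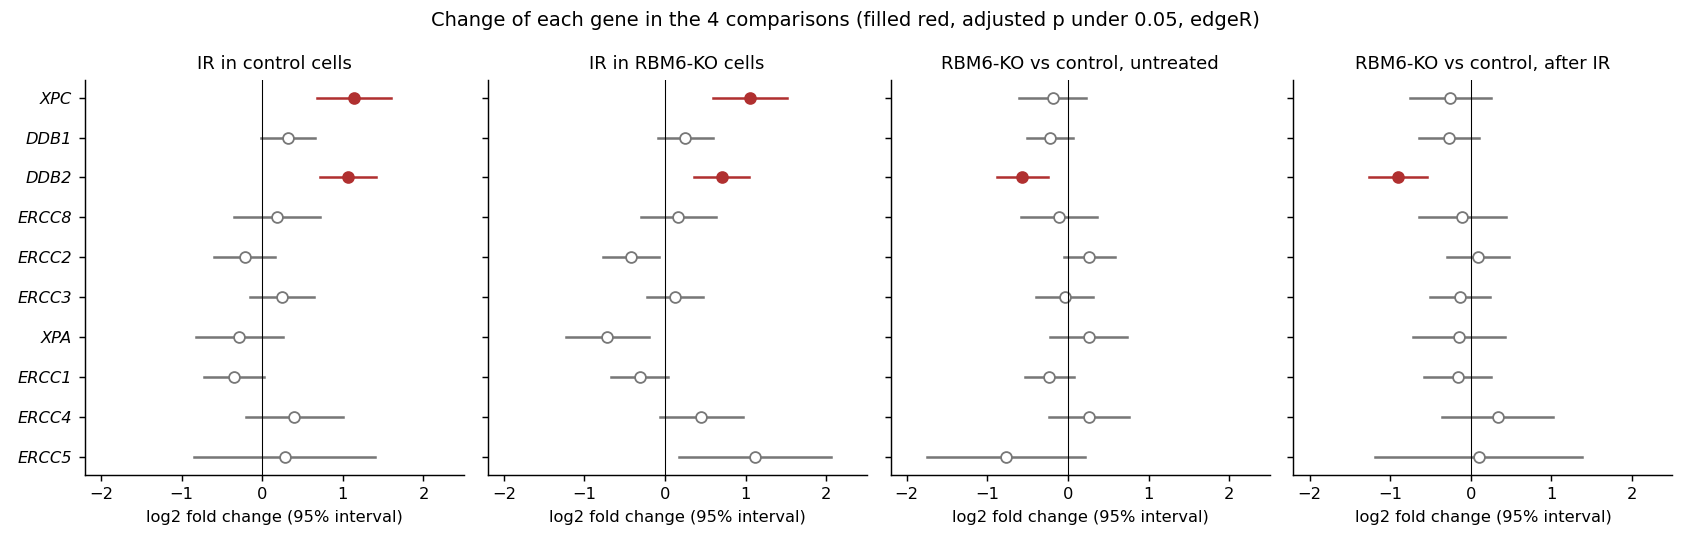
Log2 fold change of each gene with its 95% interval in the 4 comparisons from edgeR, with filled red points for an adjusted p under 0.05. XPC and DDB2 lie above 0 in both IR comparisons, and DDB2 is the only filled point, below 0, in the comparisons of RBM6 KO with control (log2 fold changes -0.57 and -0.91).

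Whether the IR response itself differed between the genotypes was tested with an interaction term over all 8 libraries. No member passed, and 0 of 10 members had an unadjusted p under 0.05, beside 1.85% of the 16549 genes tested. None of these genes passed after adjustment in edgeR, and 306 had an unadjusted p under 0.05. The DDB2 response was 0.36 log2 units smaller in RBM6 KO than in control cells in the fitted value (-0.36), with a 95% interval from -0.77 to 0.05 (unadjusted p = 0.0809, edgeR). For XPC the difference was -0.08, with an interval from -0.68 to 0.51, and its sign turned when control after IR replicate B or RBM6 KO after IR replicate A was left out. A smaller rise of DDB2 in RBM6 KO cells was therefore not shown, and differences of up to 0.77 log2 units lie within its interval.

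Of the transcription-coupled and TFIIH members none passed in any comparison. Across the genes tested, log2 fold change after IR was lower at higher GC content (Spearman -0.26 in control and -0.24 in RBM6 KO cells). The members ran from 37.7% GC (ERCC8) to 60% GC (ERCC2), and the part of GC content in their values was not tested. ERCC8 (CSA, chromosome 5, 60866454 to 60945073, minus strand), the substrate receptor of a CUL4 ligase at stalled polymerase, ranged from 8.84 to 12.65 CPM over the 8 libraries, with log2 fold changes of 0.19 and 0.17 after IR in control and RBM6 KO cells. ERCC3 (chromosome 2, 127257290 to 127294166, minus strand) ranged from 42.7 to 59.1 CPM, with log2 fold changes of 0.24 and 0.12 after IR. For both genes the lowest adjusted p in the 4 comparisons of 2 groups was 0.419 (ERCC3 in control cells after IR, edgeR). ERCC2 (chromosome 19, 45349837 to 45370918, minus strand) was at 60.3 and 67.2 CPM in untreated control, 59.3 and 51.1 in control after IR, 72.2 and 82.4 in untreated RBM6 KO and 56.2 and 60.2 in RBM6 KO after IR. Its untreated RBM6 KO libraries were the highest, and its log2 fold change after IR in RBM6 KO cells was -0.42 ± 0.15 (SE; adjusted p = 0.109, edgeR).

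The verification and incision members did not pass either. XPA (chromosome 9, 97674909 to 97697340, minus strand) was at 9.09 and 8.37 CPM in untreated control, 7.64 and 6.82 in control after IR, 9.57 and 11.5 in untreated RBM6 KO and 7.28 and 5.68 in RBM6 KO after IR. The irradiated libraries were lower in both genotypes without overlap, as for 4263 of 15412 genes tested in control cells and 4606 of 15598 in RBM6 KO cells. The XPA log2 fold change was -0.28 in control cells (adjusted p = 0.491) and -0.71 ± 0.23 (SE) in RBM6 KO cells (adjusted p = 0.0849, edgeR). Without RBM6 KO after IR replicate A the latter passed, in the fit of this comparison with the highest number of passing genes. Over the fits that left out a library it ranged from -0.88 to -0.53. ERCC1 (chromosome 19, 45407334 to 45478828, minus strand) was at 117 and 122 CPM in untreated control and 105 and 83.5 after IR, and at 94.7 and 111 CPM in untreated RBM6 KO and 88.65 and 78.7 after IR. Its log2 fold changes after IR were -0.35 and -0.31 (adjusted p = 0.222 and 0.214).

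ERCC4 (chromosome 16, 13920138 to 13952348, plus strand), the catalytic partner of ERCC1, was at 6.94 and 7.40 CPM in untreated control, 7.32 and 11.5 in control after IR, 8.50 and 8.84 in untreated RBM6 KO and 9.96 and 14.0 in RBM6 KO after IR. In both irradiated groups replicate B was the higher library, and the log2 fold changes after IR were 0.40 and 0.45 (adjusted p = 0.384 and 0.218). Without RBM6 KO after IR replicate A the rise in RBM6 KO cells passed (edgeR), again in the fit with the highest number of passing genes. Over the fits that left out a library it ranged from 0.20 to 0.69. ERCC5 (chromosome 13, 102845831 to 102875995, plus strand), the nuclease on the 3' side of the lesion, was the rarest member, with 11 to 81 counts per library. It was at 1.23 and 1.66 CPM in untreated control, 0.712 and 2.61 in control after IR, 0.957 and 0.748 in untreated RBM6 KO and 2.06 and 1.71 in RBM6 KO after IR. The irradiated control libraries spanned the whole range, and the log2 fold change of 1.12 ± 0.42 (SE) after IR in RBM6 KO cells did not pass (adjusted p = 0.118, edgeR).

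Some members share exon sequence with other genes, and the strand setting of the counting was not given. Of the main ERCC5 transcript, 91.7% lies within exons of BIVM-ERCC5 on the same strand, a readthrough gene listed at 0 counts in all libraries, so the ERCC5 counts are uncertain, and how shared reads were assigned was not tested. ERCC1 shares 47.1% of its main transcript with POLR1G on the opposite strand, and XPC shares 30.03% with XPC-AS1, which had 222 counts over all libraries. DDB2 and DDB1 share none of their main transcripts with another annotated gene.

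A wider list of 53 nucleotide excision repair genes, the 10 members included, gives the pathway around them. 52 were tested, and GTF2H4, a TFIIH subunit, had at most 3 counts in a library. In control cells after IR 3 of the 52 rose and 0 fell, beside 2.81% and 2.91% of all genes tested, and the third gene beside XPC and DDB2 was PCNA, the sliding clamp of repair synthesis and also a p53 target, at 96.2 and 77.0 CPM before and 172 and 144 CPM after IR (log2 fold change 0.86 ± 0.18 SE, adjusted p = 0.0216, edgeR). In RBM6 KO cells PCNA, at 92.8 and 93.7 CPM before and 124 and 129 CPM after IR, did not pass (log2 fold change 0.42, adjusted p = 0.0938). The difference between these responses was -0.43, with an interval from -0.90 to 0.05.

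In RBM6 KO cells 3 of the 52 rose and 3 fell after IR, beside 2.44% and 3.23% of all genes tested. CUL4B, a scaffold of the ligase that DDB1 and DDB2 join, went from 421 and 337 CPM to 580 and 654 CPM (log2 fold change 0.69, adjusted p = 0.0439). UVSSA, a factor of the transcription-coupled branch, fell from 24.0 and 18.0 CPM to 9.96 and 10.2 CPM (log2 fold change -1.07, adjusted p = 0.0279). RFC4, a subunit of the clamp loader, and POLE, the catalytic subunit of polymerase epsilon, fell with log2 fold changes of -0.76 and -0.61 (adjusted p = 0.0354 and 0.0473, edgeR). In control cells the log2 fold changes of these 4 genes after IR were 0.16, -0.56, -0.42 and -0.30, and none passed there or in the interaction test. Between the genotypes, DDB2 was the only gene of the 52 to pass in either treatment.

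The medians of the steps after IR are given as a description, since no test compared the steps. The median log2 fold change of the 9 damage recognition genes was 0.16 in control and 0.25 in RBM6 KO cells, and that of the 9 tested TFIIH genes was 0.06 and 0.01. The 9 transcription-coupled genes had medians of -0.10 and -0.12, and the 7 verification and incision genes of -0.06 and -0.05. The 18 gap filling and ligation genes, most of which also serve DNA replication, had medians of -0.02 and -0.31. Of these, 11 of 18 were below 0 in control and 13 of 18 in RBM6 KO cells, beside 7475 of 15412 and 7860 of 15598 genes tested. A list of 20 proliferation genes had a median of -0.47 in control, where 8 fell, and -0.82 in RBM6 KO cells, where 13 fell, beside 2.91% and 3.23% of all genes. Its part in the gap filling values was not tested. Among 21 base excision repair genes, which act on oxidised and small base lesions, 1 fell and 0 rose in each genotype, near the 2.91% and 3.23% of all genes that fell. In each genotype 17 of the 21 were below 0, beside 7475 of 15412 and 7860 of 15598 genes tested. Their medians were -0.06 in control and -0.21 in RBM6 KO cells.

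**Figure D3:**
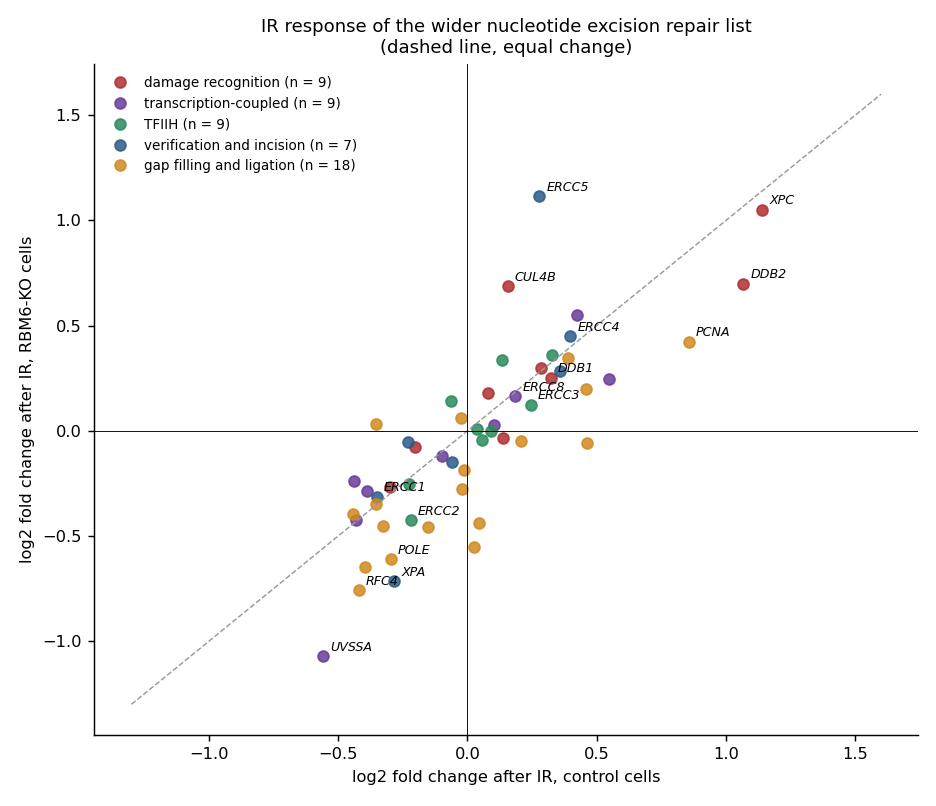
Log2 fold change after IR in control cells (horizontal axis) and in RBM6 KO cells (vertical axis) for the 52 tested genes of the wider list, coloured by step, with equal change on the dashed line. XPC (1.14 and 1.05) and DDB2 (1.07 and 0.70) stand apart at the right, PCNA lies below the dashed line, and UVSSA is the lowest point.

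XPC and DDB2 were set beside a list of 30 p53 targets that holds both. The list was chosen with earlier results of these data known. After IR 24 of the 30 rose in control cells and 20 in RBM6 KO cells, beside 2.81% and 2.44% of all genes tested. In both genotypes 0 fell, beside 2.91% and 3.23%, and the median log2 fold changes were 1.05 and 0.93. Counted from the largest rise, XPC was 13th in control and 12th in RBM6 KO cells, near the middle of the list in both. DDB2 was 15th in control and 19th in RBM6 KO cells. GDF15, a secreted stress cytokine, had the largest rise of the list in both genotypes, with log2 fold changes of 2.62 and 2.93.

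Between the genotypes, the median log2 fold change of the other 28 p53 targets was -0.06 untreated and -0.10 after IR. In untreated RBM6 KO cells 2 of these 28 fell and 0 rose, beside 3.73% and 2.38% of 15556 genes. The 2 were GDF15 (-0.69, adjusted p = 0.0113) and BBC3, which encodes the pro-apoptotic protein PUMA (-0.90, adjusted p = 0.0237, edgeR). After IR none of the 28 passed in edgeR, beside 0.84% of 15587 genes that fell and 0.372% that rose. An unadjusted p under 0.05 was found for 6 of the 28 untreated, beside 2867 of 15556 genes, and for 5 of the 28 after IR, in either direction, beside 1731 of 15587 genes. After IR DDB2 had the lowest log2 fold change of the 30.

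**Figure D4:**
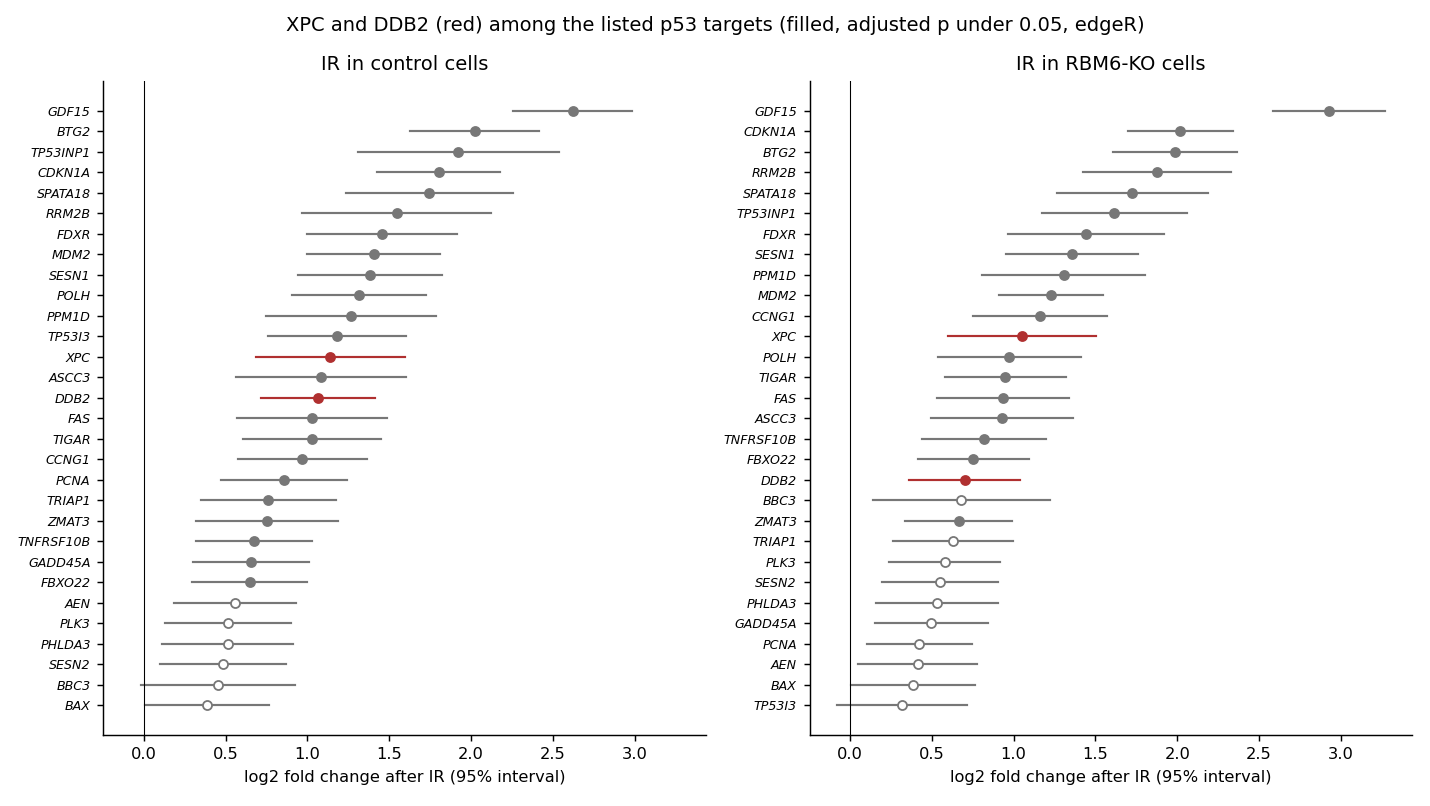
Log2 fold change after IR with its 95% interval for the 30 listed p53 targets in control (left) and RBM6 KO cells (right), ordered by size within each panel, with filled points for an adjusted p under 0.05 in edgeR and XPC and DDB2 in red. XPC keeps a middle place (1.14 and 1.05), and DDB2 is lower in the right panel (1.07 and 0.70).

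The profiles of XPC and DDB2 over the 8 libraries differed from each other, with a root mean square difference of 0.32 on the log2 CPM scale after centring each gene. The 5 genes most like XPC among 16549 were PSTPIP2, POLH, DOCK8, MR1 and RAP1GAP2, at differences of 0.067 to 0.104. Each of the 5 had a log2 fold change after IR of 0.94 to 1.38 in control cells and 0.91 to 1.03 in RBM6 KO cells. POLH encodes polymerase eta, which copies past ultraviolet lesions, and is on the p53 target list. The 5 genes most like DDB2 were UNC5B, PPP1R14C, SLC2A9, GPC4 and ADAMTS7, at differences of 0.086 to 0.149. They had log2 fold changes after IR of 0.79 to 1.01 in control cells and 0.53 to 0.94 in RBM6 KO cells. In RBM6 KO against control these were -0.91 to -0.61 untreated and -0.97 to -0.73 after IR. These genes were chosen by their likeness over the same libraries, so their values are a description.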

How the data were processed

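RNA from control and RBM6 KO MCF10A-Hras cells, untreated or after IR, was sequenced with a TruSeq mRNA kit as paired-end reads (8 libraries). The table the authors deposited holds raw whole-number counts for each Ensembl gene, from reads mapped to hg38 and not normalized. The submitters' processing notes name STAR and DESeq2, and the counting tool, annotation and strand setting are not given in the sources used here. Symbols, positions and exon lengths came from GENCODE v44, which holds 57392 of the identifiers and lacks 841. A count of 0 allows up to 3 counts, or 0.101 to 0.195 CPM, counting error only.

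Counts were tested in R 4.3.3 with edgeR 4.0.16 (quasi-likelihood test, TMM, filterByExpr), each comparison on its own 4 libraries and the interaction on all 8, with Benjamini-Hochberg adjustment over all genes tested. Genes passed at an adjusted p under 0.05, and a 2-fold change was also counted. The SE is the log2 fold change divided by the square root of F. CPM used TMM factors over 8 libraries. The script was tested on simulated data. With 2 libraries against 2, an exact permutation test cannot go below p = 0.333, so none was used. Alternatives were the upper-quartile and DESeq2 size-factor normalizations, DESeq2 1.42.0, other filters, a block for the replicate letter, 1 fit of all libraries, a spline for GC content, length and expression, another length for levels, and each library left out. The members and the lists were chosen with earlier results of these data known. Genes were named if they were members, RBM6, genes of the wider list that passed in any test, or the 5 genes most like XPC or DDB2. Marker genes, genes that overlap members and the untested GTF2H4 were also named, and GDF15 and BBC3 were named after their values were seen. Promoter windows came from RefSeq (GRCh38.p14).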

Additional observations from a re-analysis of the deposited data

How the results depend on the processing

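DDB2 and XPC kept their direction in all 4 comparisons under every alternative run, XPC kept its calls after IR under each alternative that used all the libraries of the comparison (8 of 8 in each genotype), and no member turned direction between the genotypes or after IR except when a library was left out and, in the spline for GC content, length and expression (no test), ERCC3 in RBM6 KO cells (-0.06) and ERCC8 in control cells (-0.05) after IR. Members past the adjusted p went from 1 to 0 in untreated RBM6 KO against control with all 8 libraries in 1 fit and after IR with at least 10 counts in every library. In that spline the DDB2 difference was -0.45 untreated and -0.83 after IR, and values of members that did not pass shrank by over 1.5 times in places, as for XPC between the untreated genotypes (-0.19 to -0.07) and, in control cells after IR, DDB1 (0.32 to 0.19), ERCC3 (0.24 to 0.02) and ERCC4 (0.40 to 0.09). Others grew by over 1.5 times, as between the genotypes for ERCC2, untreated (0.26 to 0.46) and after IR (0.09 to 0.27), and for ERCC8 untreated (-0.11 to -0.36). Log2 fold change and GC content correlated across genes (Spearman) at -0.29 untreated and -0.31 after IR in RBM6 KO against control. After IR the value was -0.26 in control and -0.24 in RBM6 KO cells, and in the interaction it was 0.01. The replicate letters were not treated as pairs in the main fits. Over 16549 genes, the A minus B differences of the 2 genotypes correlated at 0.08 untreated and 0.35 after IR. Those of untreated and irradiated cells correlated at -0.18 in control and -0.26 in RBM6 KO cells. The irradiated groups of the 2 genotypes thus shared part of their A minus B difference, and its source was not tested. Under the replicate block, members past the adjusted p in RBM6 KO cells after IR went from 2 to 1 (DDB2 adjusted p = 0.0936, edgeR), and in RBM6 KO against control after IR 541 genes in place of 182 passed at 2-fold and 2416 in place of 189 by the adjusted p. Crossing the letters, which was chosen after seeing the data, gave 965 genes at 2-fold and 3973 by the adjusted p in control cells after IR, and 1222, 6926 and 8 members in RBM6 KO cells.

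For RBM6 KO against control after IR, the numbers of genes at 2-fold and by the adjusted p were 280 and 387 with DESeq2, 506 and 711 without a filter, 71 and 71 with at least 10 counts in every library, and 340 and 476 with all libraries in 1 fit. Untreated, 510 in place of 952 passed the adjusted p with all libraries in 1 fit. After IR in control cells 1361 in place of 881 passed the adjusted p with the upper quartile, and 962 and 2074 passed without a filter. In RBM6 KO cells after IR 1589 in place of 884 passed the adjusted p with DESeq2, and 1011 and 2800 passed without a filter. The interaction gave 1 gene in place of 0 without a filter. The causes were not tested.

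Leaving out 1 library in turn, members past the adjusted p ranged from 0 to 1 in each genotype comparison, from 0 to 5 in control cells after IR and from 1 to 4 in RBM6 KO cells after IR. Genes at 2-fold ranged from 169 to 477 in RBM6 KO against control after IR, 287 to 1406 in control cells after IR and 289 to 1563 in RBM6 KO cells after IR, and by the adjusted p from 522 to 1249 in the untreated comparison, 169 to 626, 290 to 4665 and 364 to 3599. The highest values after IR came without irradiated replicate A in each genotype. Log2 fold changes of members that did not pass turned sign in some of these fits: ERCC3 untreated (-0.20 to 0.15). In RBM6 KO against control after IR these were ERCC2 (-0.028 to 0.18), ERCC5 (-0.47 to 1.397), ERCC8 (-0.28 to 0.093) and XPA (-0.34 to 0.014), and in control cells after IR ERCC5 (-1.03 to 0.85) and ERCC8 (-0.021 to 0.37). In the interaction they were XPC (-0.31 to 0.12), DDB1 (-0.22 to 0.080), ERCC1 (-0.086 to 0.22), ERCC3 (-0.30 to 0.043), ERCC4 (-0.22 to 0.47) and ERCC8 (-0.19 to 0.22).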
